A study of Rattus norvegicus with 9 samples.

Results

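The dual-specificity MAP kinase phosphatases Dusp1, Dusp2, Dusp4, Dusp5, Dusp6, Dusp10 and Dusp16 were examined in rat liver after total-body irradiation (TBI) with or without Hong Shan Capsule (HSC), a herbal preparation. A probe was assigned to one of these 7 genes when its RefSeq identifier on the array mapped to the gene's symbol or to one of its synonyms. Of the 7 genes, 5 had a matched probe among the 41012 probes, which named 13438 genes in all. Dusp1, Dusp4, Dusp5 and Dusp16 were bright enough to be tested, Dusp2 was matched but was not tested, and Dusp6 and Dusp10 were not analysed here. The tested genes thus made up 4 of the 9604 named genes that were tested, and Dusp16 was read by 2 probes.

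The arrays measured liver RNA of 9 male Wistar rats, with 1 array per rat and 3 rats in each of 3 groups. Control rats were not irradiated and received no HSC. TBI rats received 6.5 Gy from a cobalt source at 2 Gy/min. HSC + TBI rats were given HSC by gavage on each of 3 days and were then irradiated in the same way. The HSC dose stood at 30 mg/kg a day in the sample labels and at 10 g/kg a day in the design text, and rats given HSC alone were not analysed here. All livers were taken 24 h after exposure, so earlier times were not seen. The age of the rats was not stated in the sources used here, nor whether the rats of a group shared a cage or treatment day.

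MAP kinases are switched on when a kinase above them phosphorylates a threonine and a tyrosine in their activation loop. The dual-specificity phosphatases remove both phosphates and so switch the kinases off, and several of their genes are themselves transcribed in response to MAP kinase signalling, which closes a negative feedback loop. Dusp1, Dusp2, Dusp4 and Dusp5 encode inducible enzymes of the nucleus, Dusp6 encodes a cytoplasmic enzyme selective for ERK, and Dusp10 and Dusp16 encode enzymes that act mainly on the stress kinases JNK and p38.

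The promoters of Dusp1, Dusp5 and Dusp16 are shown because Dusp1 and Dusp5 moved together between the control rats while Dusp16 barely varied. The sequences are the 250 bases before the RefSeq gene start in assembly GRCr8, read on the gene's strand. They lie at chr10:17184603-17184852 on the plus strand for Dusp1, at chr1:262543524-262543773 on the plus strand for Dusp5 and at chr4:169361509-169361758 on the minus strand for Dusp16. Capitals mark TGACG, the core of the cAMP response element, on either strand, and the CArG box, the element read by serum response factor.
Dusp1: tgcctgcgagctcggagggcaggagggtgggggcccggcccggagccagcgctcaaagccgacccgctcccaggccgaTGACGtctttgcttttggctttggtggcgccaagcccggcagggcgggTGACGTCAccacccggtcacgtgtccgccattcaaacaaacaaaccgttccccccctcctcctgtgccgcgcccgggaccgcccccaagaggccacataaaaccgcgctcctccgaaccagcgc
Dusp5: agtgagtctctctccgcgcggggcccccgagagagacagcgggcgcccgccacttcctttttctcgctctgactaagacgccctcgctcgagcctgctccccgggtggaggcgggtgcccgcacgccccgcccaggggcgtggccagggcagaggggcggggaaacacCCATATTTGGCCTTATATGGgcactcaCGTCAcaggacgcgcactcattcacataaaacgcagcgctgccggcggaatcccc
Dusp16: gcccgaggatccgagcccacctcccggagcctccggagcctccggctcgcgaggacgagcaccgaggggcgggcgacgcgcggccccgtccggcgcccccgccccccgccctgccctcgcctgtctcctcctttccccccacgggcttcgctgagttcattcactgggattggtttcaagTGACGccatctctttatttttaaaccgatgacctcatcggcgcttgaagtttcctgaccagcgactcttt
Positions are those of a match's first base, counted back from the base before the gene start as position -1. The Dusp1 window held the full palindrome TGACGTCA at position -124, which 1.59% of all 33469 windows of this length held, and a further TGACG at position -172. It also held the E-box CACGTG at position -107, found in 5.59% of windows. The Dusp5 window held 2 adjoining CArG boxes at positions -82 and -72, an element present in 1.5% of windows, a match to the NF-kB motif at position -90, present in 1.3%, and TGACG at position -55. The Dusp16 window held TGACG at position -70, which 18.2% of windows shared, and the CCAAT box at position -82, which 34% shared. The GC box GGGCGG stood at 2 places in the Dusp1 window, at 2 in that of Dusp5 and at 3 in that of Dusp16, against 30.5% of windows with at least 1. All motifs were searched on both strands. The AP-1 site TGANTCA was not found as these letters in the 3 windows, and the same held for the ETS core CCGGAA. These matches are descriptions of sequence only.

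The 8 hepatocyte markers were above background on all 9 arrays, and their summed signal was 1320000 to 1390000 in control, 1260000 to 1370000 in TBI and 1290000 to 1370000 in HSC + TBI livers, on the linear scale of the normalized signal. Between 56.6% and 69.5% of probes were above background on an array, with the highest shares, from 63.6%, in the TBI group. At a limma adjusted p under 0.05 and 1.5-fold, 7 of 9 tested p53 targets were higher after TBI, where 7.25% of all tested probes were called, and 7 after HSC + TBI than in control livers, where 3.23% were. They were Cdkn1a, which encodes the cell-cycle inhibitor p21, with log2 differences of 5.37 and 4.88, and Mdm2, Ccng1, Btg2, Bax, Phlda3 and Sesn2, with differences of 0.96 to 3.13 in TBI and 0.91 to 2.55 in HSC + TBI livers. The methods' unmoderated test with adjustment called 4 and 2 of the list. The control arrays shared slide 1, the TBI arrays slide 2, HSC + TBI 1 and 3 slide 3, and HSC + TBI 2 lay on slide 4, so slide and group cannot be told apart.

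None of the 4 tested Dusp genes passed the threshold in any comparison. A probe was called at a limma Benjamini-Hochberg adjusted p under 0.05 over 25369 tested probes together with a fold change of at least 1.5. For TBI against control the count was 0 of 4, where 7.25% of all tested probes were called, and 0 of 4 had an unadjusted limma p under 0.05, as 25.5% of probes had. In HSC + TBI against control it was 0 of 4, where 3.23% of probes were called, although 2 of 4 (Dusp1 and Dusp4) had an unadjusted limma p under 0.05, against 19.6% of probes. For HSC + TBI against TBI the count was 0 of 4, with 0.796% of probes called, and 0 of 4 had an unadjusted limma p under 0.05, as 16.3% of probes had. The methods' own unmoderated test gave 0 of 4 in each comparison at an unadjusted p under 0.05 and 1.5-fold. The 4 genes are too few to set a share of 0 apart from these background shares.

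**Figure D1:**
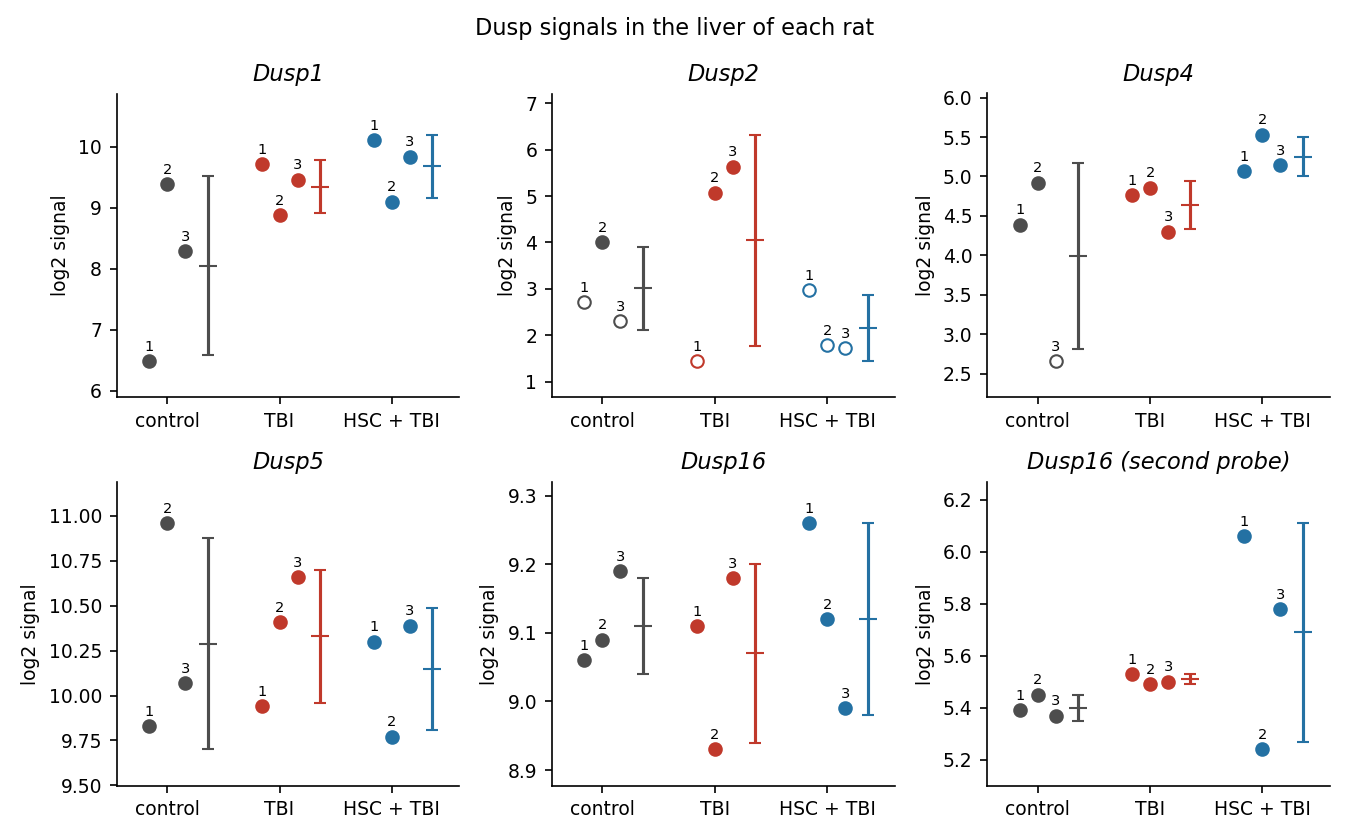
Normalized log2 signal of each probe of the 5 matched Dusp genes in each rat (numbered points), with the group mean and SD beside the points, filled points above background and open points not, and a separate vertical scale in each panel. Dusp1 spans 6.49 to 9.39 among the control rats alone, whereas the first Dusp16 probe stays between 8.93 and 9.26 in all 9 rats.

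Dusp1 (NCBI gene ID 114856) encodes a nuclear phosphatase that acts on p38, JNK and ERK and is an immediate early gene. Its log2 signal was 6.49, 9.39 and 8.29 in control rats 1 to 3. It was 9.72, 8.88 and 9.46 in the TBI rats and 10.11, 9.10 and 9.84 in the HSC + TBI rats. Control rats 1 and 3 lay below every irradiated rat, and control rat 2 lay inside the range of both irradiated groups. The means were 8.05 ± 1.47, 9.35 ± 0.43 and 9.68 ± 0.52 (log2, SD, n = 3).

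The Dusp1 mean was 2.46-fold higher in TBI than in control livers, a log2 difference of 1.30 (SE 0.64, 95% confidence interval -0.17 to 2.76, limma adjusted p = 0.247). After HSC + TBI it was 3.09-fold higher than in controls, a log2 difference of 1.63 (SE 0.64, interval 0.16 to 3.09, limma adjusted p = 0.21). Neither difference was larger than the spread between rats allows to be called, and the intervals do not exclude several-fold higher means. HSC + TBI and TBI differed by 0.33 (interval -1.14 to 1.80, limma adjusted p = 0.833). Control rat 2 and control rat 1 pulled these values in opposite directions: the TBI difference was 1.97 without control 2 and 0.51 without control 1, and the HSC + TBI difference was 2.30 and 0.85, with limma adjusted p of at least 0.0882 in all these fits. When the slide was entered as a random block, with a fitted correlation of -0.327, Dusp1 was called in TBI (1.30, limma adjusted p = 0.0138) and in HSC + TBI (1.70, limma adjusted p = 0.0239) against control. This block called 4528 of 25369 probes in TBI against control, where the main fit called 1839. Each slide held arrays of a single group, so a negative correlation within slides narrows the errors of group differences by construction. The p-values of this block are therefore too small to be set beside those of the main fit.

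Dusp2 (gene ID 311406), an inducible nuclear phosphatase best known from lymphoid and myeloid cells, was not above background in most rats. Its log2 signal was 2.71, 4.01 and 2.30 in the control, 1.45, 5.07 and 5.63 in the TBI, and 2.97, 1.79 and 1.72 in the HSC + TBI rats. It was above background in control 2, TBI 2 and TBI 3 and in none of the HSC + TBI rats, so the filter kept it out of the test. The measured means were 3.01 ± 0.90, 4.05 ± 2.27 and 2.16 ± 0.71 (log2, SD, n = 3). The probe was mostly not above background in the control and HSC + TBI rats, so differences from these groups are not read as measured fold changes. Fitted without the filter, its difference was 1.04 for TBI against control (SE 1.08, limma adjusted p = 0.609) and -1.89 for HSC + TBI against TBI (limma adjusted p = 0.478).

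Dusp4 (gene ID 60587), a nuclear phosphatase of ERK, JNK and p38, gave log2 signals of 4.39, 4.92 and 2.66 in the control rats, the last of these not above background. Its signals were 4.76, 4.86 and 4.30 in the TBI rats and 5.07, 5.53 and 5.14 in the HSC + TBI rats. All HSC + TBI rats lay above all rats of both other groups, while control and TBI rats overlapped. Group means were 3.99 ± 1.18, 4.64 ± 0.30 and 5.25 ± 0.25 (log2, SD, n = 3).

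The Dusp4 mean of HSC + TBI livers was 2.39-fold above that of controls, a log2 difference of 1.26 (SE 0.50, 95% confidence interval 0.12 to 2.39, limma adjusted p = 0.211). HSC + TBI and control groups did not overlap for 31.7% of all tested probes, so the separation of this gene is not unusual on these arrays. Against TBI the HSC + TBI mean differed by 0.61 (interval -0.53 to 1.74, limma adjusted p = 0.585), and 21.4% of probes separated these groups. TBI and control differed by 0.65 (interval -0.49 to 1.79, limma adjusted p = 0.451). Control 3 set much of this: without it, the difference was -0.01 for TBI and 0.59 for HSC + TBI, with limma adjusted p of 0.981 and 0.327. A background correction by normexp, which compresses dim signals, gave 0.20 for HSC + TBI against control, whereas the slide as a random block gave 1.22 and a call (limma adjusted p = 0.0299). The narrowed errors of that block, described for Dusp1, limit this call too.

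Dusp5 (gene ID 171109), a nuclear phosphatase specific for ERK, showed log2 signals of 9.83, 10.96 and 10.07 in the control rats. In the TBI rats they were 9.94, 10.41 and 10.66, and in the HSC + TBI rats 10.30, 9.77 and 10.39. The 3 groups overlapped throughout, and the highest rat of all was control 2. Means were 10.29 ± 0.59, 10.33 ± 0.37 and 10.15 ± 0.34 (log2, SD, n = 3). The differences were 0.05 for TBI against control (95% confidence interval -0.68 to 0.77, limma adjusted p = 0.944), -0.14 for HSC + TBI against control (interval -0.86 to 0.59, limma adjusted p = 0.859) and -0.18 for HSC + TBI against TBI (interval -0.91 to 0.55, limma adjusted p = 0.813). Leaving out a single rat was enough to turn the sign of each of these differences.

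Dusp16 (gene ID 297682), whose enzyme shuttles between cytoplasm and nucleus and acts on JNK and p38, varied least between rats of the genes tested, as read by its brighter probe. This probe read 9.06, 9.09 and 9.19 in the control, 9.11, 8.93 and 9.18 in the TBI and 9.26, 9.12 and 8.99 in the HSC + TBI rats (log2 signal). The groups overlapped and their means were 9.11 ± 0.07, 9.07 ± 0.13 and 9.12 ± 0.14 (SD, n = 3). The differences were -0.04 (95% confidence interval -0.32 to 0.23) for TBI against control, 0.01 (-0.27 to 0.28) for HSC + TBI against control and 0.05 (-0.22 to 0.32) for HSC + TBI against TBI, with limma adjusted p of 0.857, 0.978 and 0.867. All of these intervals lie inside a 1.5-fold change in either direction, and the signs of the differences turned when single rats were left out.

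The dimmer Dusp16 probe read 5.39, 5.45 and 5.37 in the control, 5.53, 5.49 and 5.50 in the TBI and 6.06, 5.24 and 5.78 in the HSC + TBI rats. On it the TBI rats lay just above the control rats, by 0.11 (limma adjusted p = 0.758), a separation that 28.8% of all probes showed for these groups. HSC + TBI rats scattered to both sides of the others, with differences of 0.29 from control (limma adjusted p = 0.44) and 0.19 from TBI (limma adjusted p = 0.665). The 2 probes gave opposite signs for TBI against control.

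**Figure D2:**
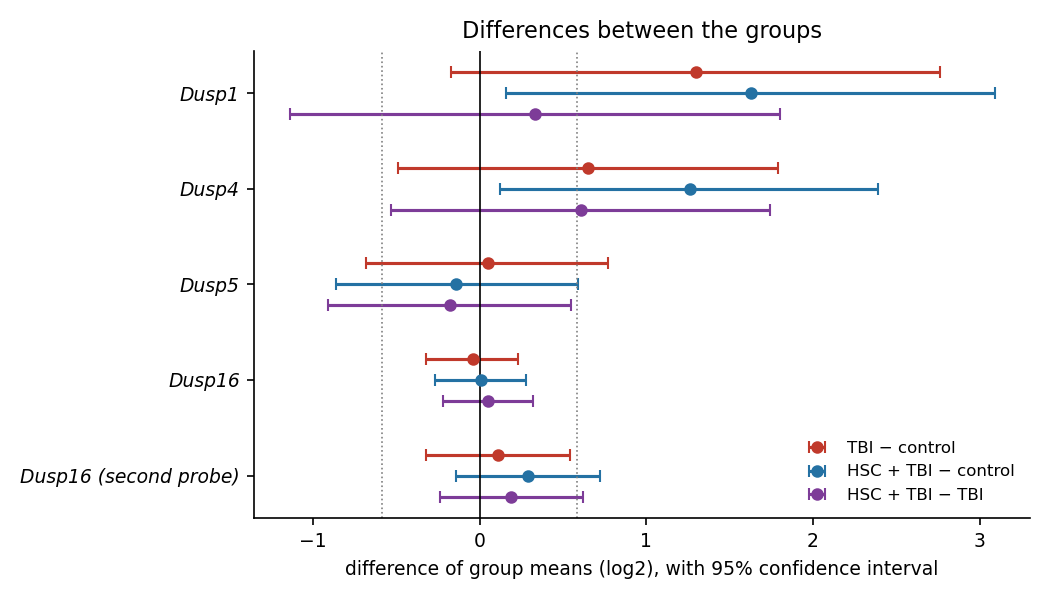
Difference of group means on the log2 scale for each tested Dusp probe, with its 95% confidence interval from the limma fit; dotted lines mark a 1.5-fold change in either direction. The Dusp1 and Dusp4 intervals for HSC + TBI against control start at 0.16 and 0.12, above 0, while those of the first Dusp16 probe stay within the dotted lines.

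Dusp1, Dusp4 and Dusp5 varied widely among the unirradiated rats. Dusp1 ranged 7.49-fold among the control rats (SD 1.47 on the log2 scale), and 0.564% of 25346 tested probes had a larger control SD. Dusp4 ranged 4.78-fold and was exceeded by 1.04% of probes, with the limit that control 3 was not above background. Dusp5 ranged 2.19-fold, exceeded by 5.61%. Dusp16, in contrast, ranged 1.09-fold on its brighter probe, and 88.2% of probes had a larger SD. The median control SD over all tested probes was 0.17. In the irradiated groups the Dusp1 SD was nearer to that of other probes, with 22.5% of probes above it in TBI and 6.87% in HSC + TBI livers. These shares describe single groups of 3 rats and were not tested between groups.

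**Figure D3:**
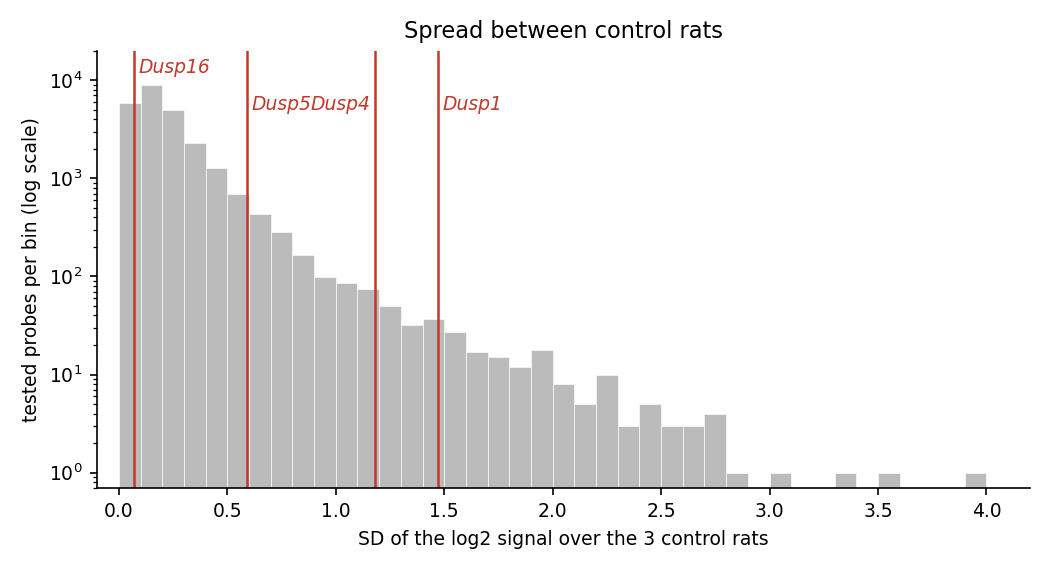
Distribution of the SD of the log2 signal over the 3 control rats for 25346 tested probes (grey bars, bins of 0.1, log vertical axis), with the 4 tested Dusp genes as vertical lines. Dusp1 (1.47) and Dusp4 (1.18) lie far out in the upper tail, Dusp5 (0.59) on its slope and Dusp16 (0.07) in the lowest bin.

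Dusp1 and Dusp5 shared an order among the control rats, lowest in control 1, intermediate in control 3 and highest in control 2, with at least 1 log2 unit from lowest to highest. This pattern was chosen after the values were seen and is given as a description with no test. It was shared by 502 of 25346 tested probes (1.98%), by 2 of the 4 tested Dusp genes by 1 of 4 other MAP kinase phosphatases (Ptpn7), by 2 of 9 p53 targets (Btg2 and Gadd45a) and by 7 of 15 tested MAP kinase responsive transcription factors with a value in every control rat. The 7 factors were Atf3, Egr2, Fos, Ier2, Jun, Junb and Myc, all of them classed as immediate early or stress-inducible genes. Fos, a component of the AP-1 factor, read 5.16 in control 1 but 8.70 and 8.51 in controls 2 and 3. Atf3, a stress-inducible factor, read 7.90, 10.67 and 8.93 in controls 1 to 3. Of the 4 tested markers of natural killer cells, 3 (Gzmb, Klrd1 and Nkg7) followed the same order over at least 1 log2 unit, while 0 of 8 hepatocyte, 0 of 6 T cell and 0 of 7 Kupffer cell markers did. Over a smaller range, 5 of those 6 T cell and 6 of those 7 Kupffer cell markers had the same order, which 15.8% of all probes had. So did 5 of 8 glucocorticoid receptor targets, 3 of 4 endothelial, 3 of 8 hepatocyte and 0 of 5 stellate cell markers. Before normalization the 75th percentile of the log2 signal had this order too, at 7.64, 7.98 and 7.83 in controls 1 to 3. The share of probes above background was 56.6%, 59.3% and 57.8%. The part of cell types or array brightness in the spread of Dusp1 and Dusp5 was not tested.

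**Figure D4:**
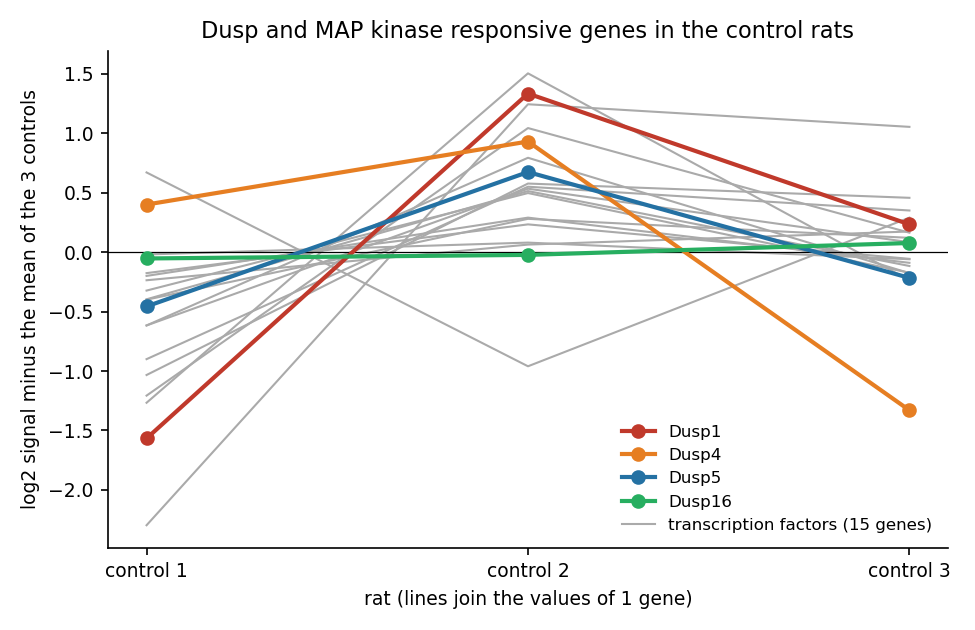
Log2 signal of the tested Dusp genes and of 15 MAP kinase responsive transcription factors (grey) in each control rat, minus the gene's mean over the 3 control rats; lines only join the values of a gene, and the rats have no order. Dusp1, Dusp5 and most of the factors are lowest in control 1 and highest in control 2, Dusp4 is lowest in control 3 and Dusp16 is flat.

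Among the close relatives of these genes, none was called either. The other MAP kinase phosphatases gave 0 of 4 called in each comparison, and the atypical dual-specificity phosphatases, small enzymes with broader substrates, gave 0 of 8 (limma). At an unadjusted limma p under 0.05 the counts were 0, 1 and 2 for the other MAP kinase phosphatases and 3, 5 and 3 for the atypical ones, for the TBI group against controls, the HSC + TBI group against controls and the irradiated groups against each other. In the same order, 25.5%, 19.6% and 16.3% of all tested probes had such a p, and 7.25%, 3.23% and 0.796% were called. The groups did not overlap for 28.8%, 31.7% and 21.4% of all tested probes. Some relatives are named here after their values were seen. Dusp3, an atypical phosphatase of ERK and JNK, read 11.78, 11.65 and 11.75 in control and 12.11, 12.32 and 12.31 in TBI rats, a difference of 0.52 that had a limma adjusted p of 0.0311 but stayed under 1.5-fold. Ptpn7, a tyrosine phosphatase of blood cells that acts on ERK and p38, read 6.17, 6.20 and 6.38 in HSC + TBI rats against 6.80, 7.85 and 7.70 in controls, a difference of -1.20 (limma adjusted p = 0.0892). In TBI rats Ptpn7 read 6.86, 7.87 and 7.70, by 0.02 from control, and HSC + TBI differed from TBI by -1.22 (limma adjusted p = 0.133). Dusp29, above background on 2 of 3 control arrays, differed by 1.34 in TBI against control (limma adjusted p = 0.0638). Its HSC + TBI difference from TBI was -1.17 (limma adjusted p = 0.185).

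Along the rest of the cascade, 3 of 63 tested genes were called in TBI against control (4.76%, beside 7.25% of all probes), 2 higher and 1 lower, and 15 had an unadjusted limma p under 0.05, as 25.5% of all probes had. For HSC + TBI livers limma called 0 of 63 both against control and against TBI, with 16 and 14 genes at an unadjusted limma p under 0.05, beside 19.6% and 16.3% of all probes. The list joined both groups of phosphatases with MAP kinases, MAP kinase kinases, MAP3 kinases and Raf, Ras-ERK feedback inhibitors such as the Sprouty genes, and MAP kinase responsive transcription factors. Its median difference was 0.13, 0.06 and -0.08 in the 3 comparisons, against -0.01, 0.05 and 0.06 over all tested probes. The 7 tested MAP kinases, 13 MAP3 kinases and Raf genes and 8 feedback inhibitors held 0 calls in TBI against control, with 2, 1 and 1 genes at an unadjusted limma p under 0.05.

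Map2k6, one of the kinases that activate p38, was the gene of the list that fell after TBI. It read 7.67, 7.33 and 7.29 in control, 6.37, 5.71 and 5.96 in TBI and 6.37, 6.59 and 6.90 in HSC + TBI rats. TBI lay below control in every rat, by a mean of -1.42 (log2, limma adjusted p = 0.00676), and this call held whichever rat was left out. TBI and control groups did not overlap for 28.8% of all tested probes, and HSC + TBI and control groups for 31.7%. The TBI difference of Map2k6 was -0.64 and still called with normexp, and not called by the methods' unmoderated test after adjustment (adjusted p = 0.0993). HSC + TBI also lay below control in every rat, by -0.81 (limma adjusted p = 0.0773, and 0.0489 without TBI 1), and differed from TBI by 0.61 (limma adjusted p = 0.206). The slide as a random block, with its narrowed errors, called both of these, with limma adjusted p of 0.00515 and 0.0203.

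Jun and Myc, transcription factor genes induced by MAP kinase signalling, were called higher after TBI, by calls that many settings did not keep. Jun read 9.88, 12.13 and 11.25 in control, 12.59, 13.83 and 13.66 in TBI and 13.11, 12.21 and 12.45 in HSC + TBI rats. Every TBI rat lay above every control rat, as 28.8% of all tested probes separated these groups, by a mean of 2.28 (limma adjusted p = 0.0435). Myc read 8.53, 9.94 and 8.97 in control, 10.34, 10.79 and 11.63 in TBI and 10.62, 9.90 and 10.24 in HSC + TBI rats, with a TBI difference of 1.77 (limma adjusted p = 0.0383). Both calls were lost when control 1, control 3, TBI 2, TBI 3 or any HSC + TBI rat was left out, with limma adjusted p of up to 0.117 for Jun and 0.121 for Myc. They were also lost with the replicate number as a block (0.0589 and 0.0668), without the filter on dim probes (0.0734 and 0.0652), with only these groups fitted (0.0896 and 0.0811) and by the methods' unmoderated test after adjustment (0.239 and 0.226). The HSC + TBI differences from control were 1.51 for Jun (limma adjusted p = 0.186) and 1.11 for Myc (limma adjusted p = 0.195), and those from TBI were -0.77 and -0.67 (limma adjusted p = 0.54 and 0.478). The 16 tested transcription factors had a median difference of 0.69 in TBI and 0.17 in HSC + TBI livers against control and of -0.45 between the irradiated groups, and the comparisons share their groups.

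**Figure D5:**
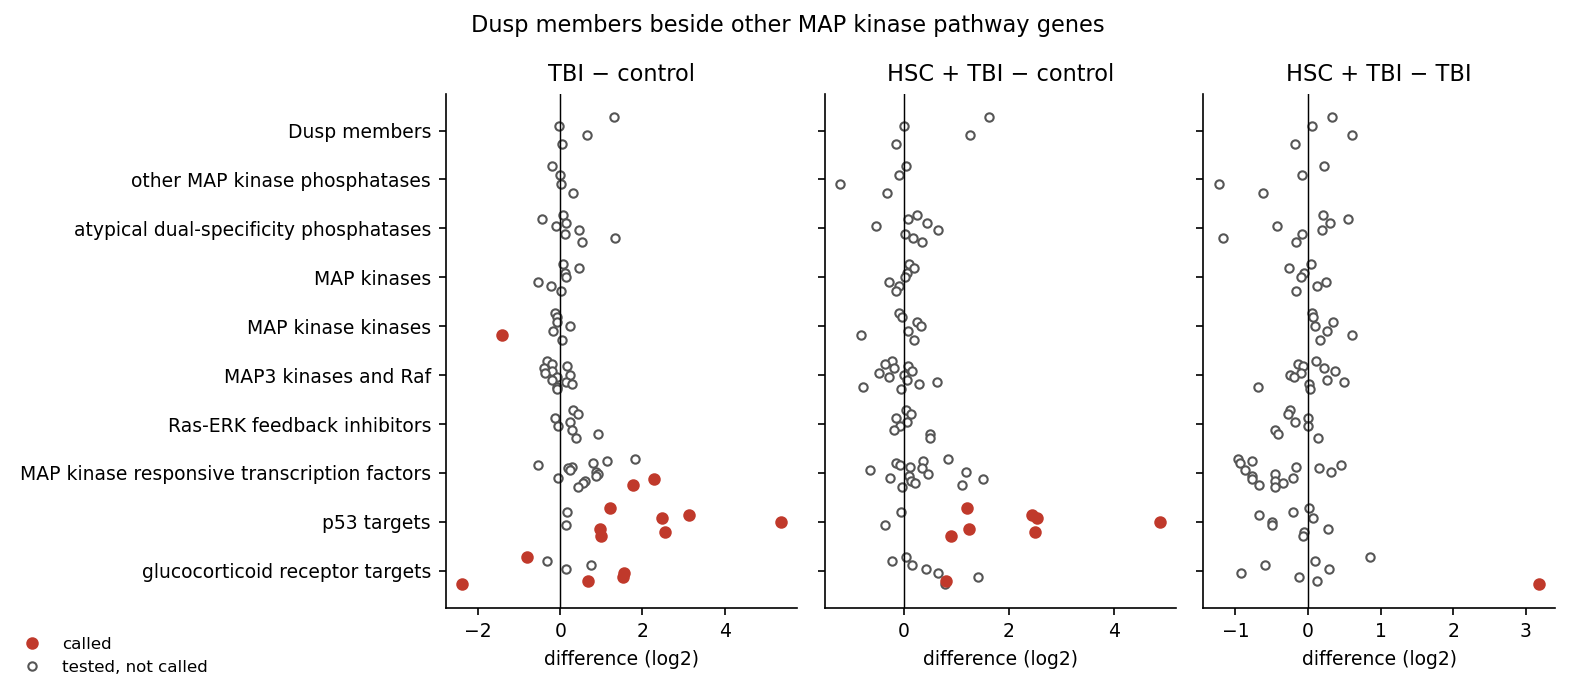
Log2 differences of the 4 tested Dusp genes and of the tested genes of each list in the 3 comparisons, each panel with its own horizontal scale; filled red points were called by limma at an adjusted p under 0.05 and 1.5-fold, open points were tested and not called. Calls in the MAP kinase lists are Map2k6, Jun and Myc in TBI against control, while 7 of 9 p53 targets are called in both irradiated groups.

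Glucocorticoids induce Dusp1 in many cells, so 8 known targets of the glucocorticoid receptor were listed beside it. In TBI against control 3 were higher (Tsc22d3 by 0.68, Sgk1 by 1.56 and Tat by 1.53) and 2 lower (Fkbp5 by -0.82 and Zbtb16 by -2.40), so 5 of 8 were called (limma), beside 7.25% of all probes. Calls in that comparison numbered 2 without control 1, control 3 or TBI 2 and 3 without control 2 or TBI 3. They numbered 3 without the filter on dim probes, 2 with only these groups fitted, 0 by the methods' unmoderated test after adjustment and 6 with the slide as a random block. Tsc22d3 was the gene called in HSC + TBI against control (0.80), and it was lost without control 3, HSC + TBI 1 or HSC + TBI 2. Zbtb16 was the gene called in HSC + TBI against TBI (3.18, limma adjusted p = 0.0129), with 3 genes called when TBI 1 was left out and 0 with only these groups fitted or by the methods' unmoderated test after adjustment. The list moved in both directions, and its relation to Dusp1 was not tested.

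The genes whose signal followed each Dusp gene most closely over the 9 arrays were taken from 8527 named genes above background on every array, as a description. For Dusp1 they were Cers2 (r = 0.946), Paqr3 (r = 0.896) and Apold1 (r = 0.895). For Dusp4 they were Eif3a (r = 0.947), Spry4 (r = 0.940) and Slco1b2 (r = 0.922). For Dusp5 they were Piezo1 (r = 0.906), Rbm3 (r = 0.903) and Lyst (r = 0.898), and for Dusp16 they were Rpl24 (r = 0.890), Ppp4r1 (r = 0.872) and Nxf1 (r = 0.866). Spry4, a feedback inhibitor of Ras-ERK signalling, read 6.23, 6.22 and 5.58 in control, 6.34, 6.52 and 6.30 in TBI and 6.32, 6.72 and 6.53 in HSC + TBI rats. Like Dusp4 it was lowest in control 3 and highest in HSC + TBI 2. The points share slides and groups, and the highest of so many coefficients over 9 arrays is large by selection.

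Liver tissue holds several cell types, and in bulk RNA fewer cells of a type and less RNA per cell cannot be told apart. Summed Kupffer cell and macrophage markers, 7 of 7 above background on all arrays, were 46900 to 67500 in control, 46600 to 87800 in TBI and 32700 to 35700 in HSC + TBI livers (linear signal). Clec4f, the brightest, made up most of this sum (means 15.47, 15.58 and 14.72, log2). Against control, Marco differed by 0.64 in TBI and -0.57 in HSC + TBI livers, and Cd163 by -0.03 and -0.18. Limma called 0 of these 7 markers in each comparison. Natural killer cell markers summed to 1040 to 2280, 618 to 1990 and 381 to 642, with 3 of 5 above background on all arrays. T cell markers summed to 601 to 828, 339 to 522 and 325 to 425, with 2 of 8 above background on all arrays, Cd3d among them (means 8.66, 7.88 and 7.90, log2), and Cd3e and Cd5 on none. Cd3g, above background in every control rat, was called lower in TBI (-3.60, 2 of 3 arrays above background) and in HSC + TBI livers (limma adjusted p = 0.000297), where 0 of 3 arrays were above background. Cd2 was called lower in TBI livers (limma adjusted p = 0.00123, 0 of 3 arrays above background) and was higher in HSC + TBI than in TBI livers (limma adjusted p = 0.0306). Only 1 of 3 HSC + TBI arrays was above background for Cd2, so the difference between the irradiated groups lies mostly among background signals. Of the other tested T cell markers, Cd4 and Lck were higher in TBI than in control livers (0.71 and 0.55) and Cd8a was lower (-0.90). In HSC + TBI livers Lck was higher than in control livers (0.41), and Cd4 and Cd8a were lower (-0.13 and -1.64). None of these differences was called by limma. Neutrophil markers (5 of 6 matched, Elane above background on no array) summed to 259 to 611, 368 to 773 and 218 to 294.

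Endothelial markers (4 of 6 matched) summed to 12600 to 15500 in control, 16600 to 20400 in TBI and 15400 to 17100 in HSC + TBI livers, stellate cell markers (5 of 6) to 11300 to 13300, 7880 to 15800 and 9310 to 9570, and bile duct markers (2 of 4) to 385 to 517, 341 to 640 and 426 to 474. The brightest genes weigh most in such sums. Against control, Kdr, the brightest endothelial marker, differed by 0.33 in TBI and 0.15 in HSC + TBI livers, and Lyve1 by 0.53 and 0.40. Cdh5 was lower (-0.27 and -0.67), and Pecam1 differed by 0.12 and -0.40, with none of the endothelial markers called. Of the stellate cell markers, Lrat was called lower in TBI livers (-0.63, limma adjusted p = 0.0237), and the brightest, Col3a1, was not called. Erythroid markers (3 of 5) summed to 1990 to 4840, 1030 to 2580 and 834 to 1770. The part of cell makeup in the Dusp signals was not tested.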

How the data were processed

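Liver RNA of 9 rats was hybridised to one-colour Agilent rat arrays. Per the labels, spot intensity was read with Feature Extraction 10.7, and the authors normalized it by quantiles in GeneSpring and deposited 1 log2 value per probe. Here the deposited processed intensity, already background-corrected by Feature Extraction, was floored at 1 and log2-transformed, control and outlier spots were dropped (84 to 115 outliers of 43379 spots per array, 0 saturated), the arrays were quantile-normalized together, and spots were averaged per probe. A probe was above background when more than 0.5 of its spots were flagged so, and 25369 probes that were so on every array of at least 1 group were tested. The number of arrays limits the precision.

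Groups came from the labels and were compared with limma 3.58.1 in R 4.3.3, in 1 fit of the 3 group means, with Benjamini-Hochberg adjustment over all tested probes. Each limma p-value sets a difference of group means against the spread between rats of the same group. RefSeq genes of GRCr8 named 16968 probes, and a gene was read by its brightest tested probe. By rule, named were all 7 Dusp genes, the called genes of the MAP kinase, p53 and glucocorticoid lists, and the 3 genes most like each Dusp gene, and other genes are named as examples chosen after their values were seen. The genes and lists were chosen with earlier results of these data known. The fit was also run on simulated data with independent noise for each probe and no slide effect. Such data cannot show how the fit handles slides nested in groups or dim signals. Alternatives were other normalizations, background corrections, filters, probe choices and tests, the replicate number or slide as a block, and each rat left out. One marker list is not reported here.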

Additional observations from a re-analysis of the deposited data

How the results depend on the processing

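Over 22 other settings, the count of Dusp genes called stayed at 0 in all comparisons except with the slide as a random block, which gave 1 for TBI against control (Dusp1), 2 for HSC + TBI against control (Dusp1 and Dusp4) and 0 for HSC + TBI against TBI. The slide block called 4528 of 25369 probes in TBI against control, where the main fit called 1839, so its added calls are not particular to these genes. Slides were nested in groups and the fitted correlation was negative, which narrows the errors of group differences in this block. Leaving out single rats gave 0 to 0 Dusp genes called. The TBI difference turned for Dusp5 with normexp (-0.01) and for Dusp16 with the mean of its probes (0.03), and the HSC + TBI difference from control turned for Dusp16 with normexp (-0.01). With rats left out, TBI against control ranged from -0.01 to 1.11 for Dusp4, -0.18 to 0.38 for Dusp5 and -0.09 to 0.03 for Dusp16, HSC + TBI against control from -0.36 to 0.20 for Dusp5 and -0.06 to 0.08 for Dusp16, and HSC + TBI against TBI from -0.38 to 0.01 for Dusp5 and -0.02 to 0.12 for Dusp16. Dusp1 and Dusp4 otherwise kept their signs. The count for the MAP kinase list, 3 in TBI against control, was 1 without the filter on dim probes, 0 by the methods' t-test with adjustment, 10 with the slide block and 1 to 5 with rats left out (5 without TBI 1, and 1 without control 1, control 3, TBI 2 or HSC + TBI 3). In HSC + TBI against control it was 0, but 1 with only the 2 groups fitted, 6 by the methods' t-test without adjustment, 8 with the slide block and 0 to 3 with rats left out (2 without control 1, 3 without TBI 1). In HSC + TBI against TBI it was 0, but 4 by that t-test without adjustment, 6 with the slide block and 0 to 3 with rats left out (3 without TBI 1, 1 without TBI 3). The replicate block gave 0 Dusp genes in each comparison and 2, 2 and 0 genes of the MAP kinase list. Same-numbered rats of different groups had deviations that correlated by -0.144 to 0.191, with values of 0.0977 to 0.191 between control and TBI rats. Rats with different numbers were not compared, so these values cannot decide whether the numbers pair the rats. Apart from the narrowed errors of the slide block, the cause of the shifts between settings was not tested. Dim signals limit Dusp2 and Dusp4, which were not above background in every rat.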
